A study of Homo sapiens with 15 samples.

Results

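MKNK2 encodes MNK2, a serine/threonine kinase that is activated by the MAP kinases ERK and p38. It was followed here on 15 whole-transcript arrays of HEK293T, an established line of human embryonic kidney origin. Its members were the probe sets that the platform table names MKNK2, and 1 of 16098 named probe sets met this rule, standing for 1 of 14884 genes. MKNK2 was chosen by its measured values in these same 15 arrays, low with one siRNA and high with 3 others, so its levels and their differences are given as a description and without a test. The series asked how specific the response to silencing of LOC550643 is. This gene encodes NoBody, a small protein of the P-bodies where mRNA decapping factors gather.

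The 5 groups of 3 arrays were compared, all HEK293T cells. The LOC550643 group received a pool of 4 siRNAs against that transcript. The other 3 targeting groups received siRNA against Dcp2, the decapping enzyme and the submitters' positive control, or against their negative controls DcpS, a scavenger that hydrolyses leftover caps, and GAPDH, a glycolytic enzyme. The last group received a non-silencing siRNA that matches no human gene. Every group, the non-silencing one included, was transfected with siRNA, was given 1 ug per mL actinomycin D at 48 hours and was harvested 4 hours later. Actinomycin D blocks transcription, so each value joins the level before the drug with the decay during it, and the 2 cannot be told apart. The submitters state that transcriptional responses outweighed decay in these arrays. No label ties the 3 arrays of a group to separate cultures, and every p-value below rests on a spread among arrays that may be technical.

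MNK kinases dock on the scaffold eIF4G and phosphorylate eIF4E, the protein that binds the mRNA cap and starts cap-dependent translation. The kinases lie at the meeting point of the growth-driven ERK cascade and the stress-driven p38 cascade. The mTORC1 pathway acts on the same step through the eIF4E-binding proteins, which hold eIF4E inactive until they are phosphorylated. Human cells have a pair of MNK genes, MKNK1 and MKNK2. MKNK2 transcripts are spliced into forms with and without a MAP kinase binding site, and the splicing factor SRSF1 is known to influence this choice. A single probe set over the gene, as used here, cannot tell these forms apart.

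The promoter is shown because MKNK2 was measured after a block of transcription, and so that its sequence can be set beside those of the genes whose values ran most closely with it. The 250 bases before the annotated start of MKNK2 lie at chr19:2051245-2051494 on the minus strand of GRCh38.p14, from the RefSeq promoter table. Capitals mark the TATA box letters TATAAA and the GC box letters GGGCGG, the second also as its reverse complement CCGCCC.
MKNK2: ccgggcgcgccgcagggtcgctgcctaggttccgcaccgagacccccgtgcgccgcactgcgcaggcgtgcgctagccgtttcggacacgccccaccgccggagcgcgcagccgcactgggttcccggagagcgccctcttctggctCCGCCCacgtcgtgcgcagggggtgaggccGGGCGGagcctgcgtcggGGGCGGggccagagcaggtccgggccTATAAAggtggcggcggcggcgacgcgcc

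This stretch was 77.2% G or C. TATAAA was found 1 time, from 29 to 24 bases before the start, and 11.1% of 27305 promoter windows of the same length hold it on either strand. GGGCGG was found 2 times on the sense strand and 1 time on the other, and 42.3% of the windows hold it. The 2 motifs did not overlap. CCAAT, the E-box CACGTG, the CRE letters TGACGTCA and the AP-1 letters TGACTCA, searched on both strands, were not in this window, and 33%, 6.49%, 1.77% and 4.16% of all windows hold them. These matches describe letters and say nothing of which factors bound.

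MKNK2 took 3 separate levels across the 5 groups. It was lowest with LOC550643 siRNA, at 6.91, 6.62 and 6.94 log2 units in replicates 1 to 3. Its values were 8.31, 8.13 and 8.38 with Dcp2 siRNA, 8.29, 8.50 and 8.09 with DcpS siRNA, and 8.28, 8.45 and 8.31 with GAPDH siRNA. In the non-silencing arrays MKNK2 lay between these levels, at 7.46, 7.63 and 7.67. The highest LOC550643 array lay 0.52 log2 units below the lowest non-silencing array, and the lowest of the 9 Dcp2, DcpS and GAPDH arrays lay 0.41 above the highest non-silencing array. The Dcp2, DcpS and GAPDH arrays overlapped one another, between 8.09 and 8.50 with a median of 8.31. These are bulk values, in which less MKNK2 RNA per cell and fewer cells that hold it cannot be told apart.

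**Figure D1:**
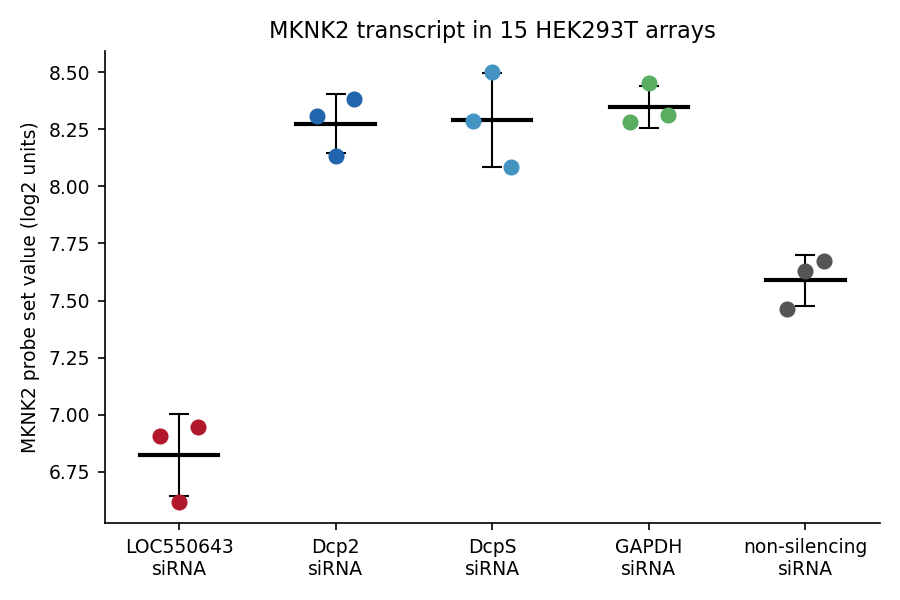
MKNK2 probe set value in log2 units (vertical axis, which does not start at 0) for the 3 arrays of each siRNA group. Points are arrays, thick lines group means and error bars 1 SD; the LOC550643 points sit at the bottom, the non-silencing points in the middle and the Dcp2, DcpS and GAPDH points together at the top, with means of 6.82, 7.59 and 8.28 to 8.35.

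As group means, MKNK2 was at 6.82 ± 0.18 log2 units with LOC550643 siRNA, 8.28 ± 0.13 with Dcp2 siRNA, 8.29 ± 0.21 with DcpS siRNA, 8.35 ± 0.09 with GAPDH siRNA and 7.59 ± 0.11 with the non-silencing siRNA (SD, n = 3 each). With LOC550643 siRNA it was thus 0.76 log2 units below non-silencing (difference -0.76, SE 0.12), or 58.8% of that level. Dcp2 siRNA left it 0.69 above (SE 0.12), DcpS siRNA 0.70 above and GAPDH siRNA 0.76 above, which are 1.61, 1.63 and 1.69 times the non-silencing level. The 4 comparisons use the same 3 non-silencing arrays, so they are not independent of each other. Groups did not overlap in any of them, which was also so for 17% of all genes for LOC550643, 22.8% for Dcp2, 18.5% for DcpS and 17.3% for GAPDH siRNA.

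The widest differences lay between LOC550643 siRNA and the other targeting siRNAs. MKNK2 with LOC550643 siRNA differed by -1.45 log2 units from Dcp2, -1.47 from DcpS and -1.53 from GAPDH siRNA (SE 0.12 each), which are 36.6%, 36.2% and 34.7% of those levels. Of 14884 genes, 0 had a more negative difference than MKNK2 against Dcp2 siRNA, 0 against DcpS siRNA and 1 against GAPDH siRNA. In these 3 comparisons the groups did not overlap for 22.4%, 21.9% and 21.6% of all genes. Among the 3 siRNAs with high MKNK2, the differences were -0.02 log2 units for Dcp2 minus DcpS, -0.07 for Dcp2 minus GAPDH and -0.06 for DcpS minus GAPDH (SE 0.12 each), all smaller than the within-group SD of MKNK2, 0.15. In the order of mean levels, LOC550643, non-silencing, Dcp2, DcpS and GAPDH, the arrays of the last 3 groups overlapped and those of the first 2 overlapped with no other group, which is the pattern MKNK2 was chosen by.

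MKNK2 varied within groups about as much as other genes, with a residual SD of 0.15 log2 units against a median of 0.15 over all genes. Its group means, in contrast, spanned 1.53 log2 units against a median span of 0.27, and 7 genes had a wider span. Against non-silencing siRNA, the size of its difference was exceeded by 43 genes for LOC550643, 114 for Dcp2, 111 for DcpS and 53 for GAPDH siRNA. All 3 LOC550643 arrays below all 3 non-silencing arrays, and these below all 9 other arrays, was an order found for 6 genes, 0.0403% of those tested, and the fully opposite order for 6 as well. Besides MKNK2, the genes in the first order were HEG1, C11orf24, TRAPPC3, ARID3A and CHMP2A, named here after their values were seen. The smaller of the 2 steps was 0.72 log2 units for MKNK2 (0.76 down with LOC550643, and 0.72 up on average over the other 3 siRNAs) and 0.30 for HEG1, the next of the 6. This order is the one MKNK2 was chosen for, so its place among the 6 is a description.

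Over the 15 arrays, the axis along which arrays differed most within groups held 24.7% of the within-group variance. MKNK2 followed it weakly, with a correlation of -0.16 between their group-centred values over the 15 arrays. Non-silencing replicate 1 lay farthest out on this axis, and its MKNK2 value, 7.46, was the lowest of its group. The arrays' medians over 53617 probe sets lay between 4.01 and 4.08, and correlations between arrays lay between 0.981 and 0.991. As a check of the labels, DCP2 was at 28.7% of the non-silencing level with Dcp2 siRNA (log2 change -1.80, SE 0.13, limma adjusted p = 3.15e-06) and GAPDH at 42.6% with GAPDH siRNA (-1.23, SE 0.11, limma adjusted p = 2.7e-05). Silencing of LOC550643 and of DcpS is not analysed here, since the platform table names no probe set for either gene. Of 10 kidney and neural markers fixed for HEK293T cells 5 were measured, with means of 5.65 to 9.46 log2 units. Of markers of other cells, 2 of 5 for blood lay at 3.50 to 6.65, 2 of 4 for fibroblasts at 2.39 to 3.28 and 3 of 3 for hepatocytes at 3.49 to 5.31. There were no detection calls, so whether a marker was absent could not be read. Against non-silencing siRNA, 1 of the 5 HEK293T markers was called with DcpS siRNA, and 1 of the 2 blood markers with Dcp2 and 1 with GAPDH siRNA. Over all genes 3.61%, 1.98% and 2% were called with DcpS, Dcp2 and GAPDH siRNA, and counts this small are no reading of cell identity. The part of these markers in MKNK2's level was not tested.

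The other genes of the pathway were tested with limma, with p-values adjusted over all 14884 genes and a gene called at an adjusted p under 0.05. Of 86 listed genes in 11 lists, 60 had a named probe set. With LOC550643 siRNA, where MKNK2 was at -0.76, 0 of the 60 rose and 2 fell (3.33%, against 1.57% of all genes called, 0.658% higher and 0.907% lower), and their median difference was 0.03 log2 units against -0.01 over all genes. With Dcp2 siRNA 3 rose and 2 fell (8.33%, against 1.98% of all genes, 1.05% higher and 0.927% lower), with DcpS siRNA 0 rose and 3 fell (5%, against 3.61%, 1.76% higher and 1.85% lower), and with GAPDH siRNA 1 rose and 3 fell (6.67%, against 2%, 0.726% higher and 1.27% lower). Medians with these 3 siRNAs, where MKNK2 was at 0.69 to 0.76, were 0.03, -0.02 and -0.04 against medians of 0.00 over all genes. The counts are of 2 to 5 genes and were not tested as lists. The shares over all genes include dim genes, to which the listed genes were not matched by level.

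MKNK1, the paralog of MKNK2, was not called in any comparison with non-silencing siRNA. Its values were 5.43, 5.23 and 5.31 log2 units with LOC550643 siRNA, 5.32, 5.30 and 5.50 with Dcp2, 5.46, 5.18 and 5.19 with DcpS, 5.41, 5.44 and 5.32 with GAPDH, and 5.62, 5.60 and 5.30 with non-silencing siRNA. All 5 groups of MKNK1 values overlapped. Its differences from non-silencing were -0.19, -0.13, -0.23 and -0.12 for LOC550643, Dcp2, DcpS and GAPDH siRNA (SE 0.11 each, limma adjusted p from 0.323 to 0.702). All 4 had one sign where those of MKNK2 had both. They share the same non-silencing arrays, so the common sign may come from that reference and is not read as a contrast with MKNK2.

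Downstream of MKNK2, EIF4E, whose product is the main MNK substrate, was at 6.51 ± 0.35, 6.58 ± 0.10, 6.57 ± 0.08 and 6.53 ± 0.12 log2 units with LOC550643, Dcp2, DcpS and GAPDH siRNA, against 6.41 ± 0.13 with non-silencing siRNA (SD, n = 3 each). Its differences of 0.10 to 0.17 did not pass limma's test (adjusted p from 0.607 to 0.849). HNRNPA1 and SFPQ, RNA-binding proteins that MNK kinases phosphorylate, did not pass it either, at differences of 0.46, 0.55, 0.22 and 0.09 for HNRNPA1 and 0.26, -0.08, -0.38 and -0.44 for SFPQ in the same order of siRNAs. EIF4E2, a cap-binding relative of eIF4E, rose by 0.44 with GAPDH siRNA (SE 0.10, limma adjusted p = 0.0303). Leaving out any one GAPDH array, or replicate 1 or 2 of non-silencing siRNA, ended that call (limma adjusted p 0.0550 to 0.126). Of 7 measured substrates and eIF4E family members, 1 rose and 0 fell in these 4 comparisons. Shares of all genes called were 1.57%, 1.98%, 3.61% and 2% in the same order of siRNAs, so a count of 0 or 1 in a list this short says little.

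EIF4EBP1, which encodes an inhibitor of eIF4E, was low in the arrays where MKNK2 was low. It was at 8.46, 8.40 and 8.47 log2 units with LOC550643 siRNA, 8.97, 8.91 and 9.02 with Dcp2, 9.14, 8.69 and 8.94 with DcpS, 8.98, 9.24 and 8.94 with GAPDH, and 9.44, 8.98 and 8.93 with non-silencing siRNA. All 3 LOC550643 arrays lay below the other 12, an order whose share over all genes was not computed. Taken pairwise, the groups did not overlap, in either direction, for 17% of all genes against non-silencing siRNA. Against Dcp2, DcpS and GAPDH siRNA this share was 22.4%, 21.9% and 21.6%. EIF4EBP1 fell by 0.67 against non-silencing siRNA (SE 0.14, limma adjusted p = 0.0193), and by 0.52 against Dcp2, 0.48 against DcpS and 0.61 against GAPDH siRNA (limma adjusted p 0.0471, 0.0450 and 0.0173). Leaving out any one LOC550643 array, or replicate 1 of non-silencing siRNA, ended the call against non-silencing siRNA (limma adjusted p 0.0578 to 0.0912). The call against Dcp2 siRNA ended without any one of its 6 arrays (0.0794 to 0.147), that against DcpS siRNA without any one LOC550643 array or DcpS replicate 1 or 3 (0.0938 to 0.183), and that against GAPDH siRNA without LOC550643 replicate 1 or 2 or GAPDH replicate 2 (0.0580 to 0.0761). Median centring ended the calls against Dcp2 and DcpS siRNA. With Dcp2, DcpS and GAPDH siRNA, where MKNK2 was above non-silencing, EIF4EBP1 was at -0.15, -0.19 and -0.06 and not called. The related inhibitor EIF4EBP2 fell by 0.42 with GAPDH siRNA (limma adjusted p = 0.0437), a call that ended without any one GAPDH array or replicate 1 or 2 of non-silencing siRNA (0.0784 to 0.173) and after median centring (0.0588).

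Upstream of MKNK2, ARAF, a RAF kinase of the ERK cascade, fell by 0.41 with LOC550643 siRNA, at 7.85, 7.90 and 7.89 log2 units against 8.33, 8.24 and 8.30 in the non-silencing arrays (SE 0.08, limma adjusted p = 0.0125). Leaving out replicate 1 of either siRNA ended this call (limma adjusted p 0.0592 to 0.0642). Of 5 measured ERK arm genes, ARAF was the 1 called in any of the 4 comparisons with non-silencing siRNA, and MAPK3, which encodes ERK1, was at -0.14, -0.03, 0.00 and 0.03. Of 8 measured genes of the p38 arm, 0 were called in these comparisons. For the ERK, p38 and phosphatase lists here, the shares over all genes were 1.57%, 1.98%, 3.61% and 2% with LOC550643, Dcp2, DcpS and GAPDH siRNA. Counts in lists this short were not tested. MAPKAPK2, a sister kinase that is also activated by p38, fell by 0.68 with DcpS siRNA (SE 0.10, limma adjusted p = 0.00178), where MKNK2 was 0.70 above the non-silencing siRNA. Of 10 measured MAPK phosphatases, which switch ERK and p38 off, DUSP1 and DUSP8 rose by 1.25 and 0.82 with Dcp2 siRNA (limma adjusted p 0.0241 and 0.0291), and 0 were called with the other 3 siRNAs. The DUSP1 call ended without any one Dcp2 array or replicate 1 or 2 of non-silencing siRNA (limma adjusted p 0.0523 to 0.111), and that of DUSP8 without any one Dcp2 array or replicate 1 of non-silencing siRNA (0.0614 to 0.136).

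In the mTORC1 arm, which acts on eIF4E beside MKNK2, 1 of 6 measured genes was called with Dcp2 siRNA, against 1.98% of all genes. This was MTOR, which fell by 0.61 (SE 0.13, limma adjusted p = 0.0256). It was not called if any one Dcp2 array, or replicate 1 or 2 of non-silencing siRNA, was left out (0.0553 to 0.125). Among 11 measured mRNAs whose translation is known to be sensitive to eIF4E, 0 were called with LOC550643 against non-silencing siRNA (1.57% of all genes called). The arrays measure the amounts of these mRNAs and not their translation. BCL2, an antiapoptotic gene, fell by 0.84 with Dcp2 and 0.66 with DcpS siRNA (limma adjusted p 0.00237 and 0.00402). MYC, a growth-promoting transcription factor, fell by 0.68 with GAPDH siRNA, and FGF2, a growth factor, by 0.56 with DcpS siRNA (limma adjusted p 0.00321 and 0.00242). ODC1, the first enzyme of polyamine synthesis, fell by 0.49 with GAPDH siRNA (limma adjusted p = 0.0105) and was not called with replicate 1 of either siRNA left out (0.0501 to 0.0556). CCNE1, a cyclin of the G1 to S transition, rose by 0.48 with Dcp2 siRNA (limma adjusted p = 0.0395) but lost this call without any one of the 6 arrays compared (0.0592 to 0.133) and after median centring (0.0655). SRSF1, the splicing factor named above, was at 0.21, -0.10, -0.33 and -0.13 with LOC550643, Dcp2, DcpS and GAPDH siRNA. Against non-silencing siRNA 0 of 4 splicing regulators were called, where 1.57% to 3.61% of all genes were.

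**Figure D2:**
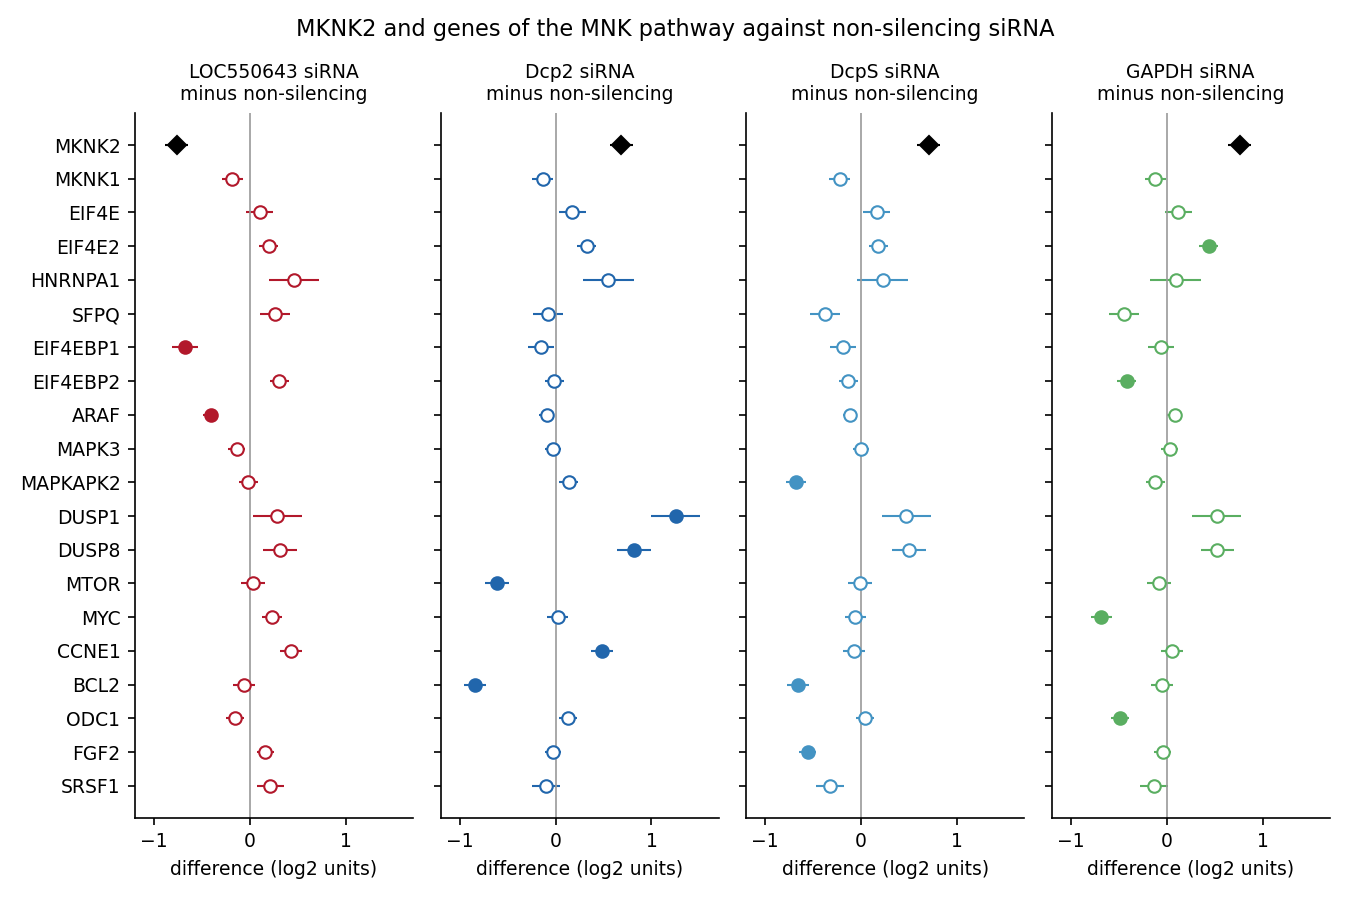
Differences from non-silencing siRNA in log2 units (horizontal axes) for MKNK2 (black diamonds, no test) and 19 pathway genes (circles), 1 panel per siRNA; bars are the SE of the fit and filled circles passed limma's test. MKNK2 lies left of 0 with LOC550643 siRNA, at -0.76, and right of 0 with the other 3, at 0.69 to 0.76, while MKNK1 and EIF4E are open circles in all 4 panels.

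Directly between siRNAs, where MKNK2 differed most, 3 of the 60 pathway genes were higher and 2 lower with LOC550643 than with Dcp2 siRNA (8.33%, against 3.2% of all genes called, 1.65% higher and 1.56% lower). Against DcpS siRNA 8 were higher and 4 lower (20%, against 6.4%, 3.49% higher and 2.91% lower), and against GAPDH siRNA 5 higher and 3 lower (13.3%, against 4.08%, 2.48% higher and 1.61% lower). EIF4EBP1 and ARAF were called lower with LOC550643 in all 3, and CCND1 higher in all 3. ARAF was lower by 0.32, 0.29 and 0.49 log2 units (limma adjusted p 0.0361, 0.0340 and 0.00160). ARAF kept its call against GAPDH siRNA without each of the 6 arrays in turn, lost it against Dcp2 siRNA without any one of the 6 arrays (0.0662 to 0.155) and lost it against DcpS siRNA without any one LOC550643 array or DcpS replicate 2 or 3 (0.0746 to 0.111). EIF4EBP2 was higher with LOC550643 than with GAPDH siRNA by 0.72 (limma adjusted p = 0.000623). It was also called higher than with DcpS siRNA, by 0.44. That call ended without LOC550643 replicate 1 or 2 or DcpS replicate 2 (limma adjusted p 0.0589 to 0.0740). SFPQ was higher with LOC550643 than with DcpS and GAPDH siRNA by 0.64 and 0.70 (limma adjusted p 0.0236 and 0.0174). Against DcpS siRNA the SFPQ call ended without LOC550643 replicate 1 or 3 or DcpS replicate 1 or 2 (0.0651 to 0.102), and against GAPDH siRNA without LOC550643 replicate 1 or 3 or GAPDH replicate 1 (0.0510 to 0.0874). SRSF1 was higher with LOC550643 than with DcpS siRNA by 0.54 (limma adjusted p = 0.0351), 1 of 4 splicing regulators against 6.4% of all genes called. It lost this call without any one LOC550643 array or DcpS replicate 1 or 2 (0.0662 to 0.153). EIF4B, listed with eIF4G, is named here after its values were seen. It was lower with LOC550643 than with DcpS and GAPDH siRNA by 0.29 and 0.27 (limma adjusted p 0.0244 and 0.0448). The EIF4B call against DcpS siRNA ended without LOC550643 replicate 2 or 3 or DcpS replicate 1 or 3 (0.0557 to 0.0848). Against GAPDH siRNA it ended without any one of the 6 arrays (0.0698 to 0.134). DUSP7, a MAPK phosphatase gene named here after its values were seen, was called higher with LOC550643 than with GAPDH siRNA, by 0.48. It kept this call without each of the 6 arrays in turn. The 3 comparisons share the LOC550643 arrays. The shares over all genes include dim genes, and the pathway genes were not matched to them by level, so the excess was not tested.

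Of the 11 measured mRNAs sensitive to eIF4E, 2 were called higher with LOC550643 than with Dcp2 siRNA, 4 than with DcpS siRNA and 2 than with GAPDH siRNA, and 0 were lower. Shares of all genes called were 1.65%, 3.49% and 2.48% higher and 1.56%, 2.91% and 1.61% lower in the same order. The arrays measure mRNA amount, so these counts do not read translation or eIF4E activity, and they were not tested as a list. CCND1, which encodes cyclin D1 and is named here after its values were seen, was higher by 0.52, 0.45 and 0.42 (limma adjusted p 0.0114, 0.0161 and 0.0298). The CCND1 call against Dcp2 siRNA ended without LOC550643 replicate 1 or 2 or Dcp2 replicate 1 or 3 (0.0532 to 0.0616), and that against DcpS siRNA without LOC550643 replicate 1 or 2 or DcpS replicate 1 (0.0545 to 0.0823). Against GAPDH siRNA it ended without LOC550643 replicate 1 or 2 or GAPDH replicate 1 or 2 (0.0778 to 0.124). CCND1 was not called against non-silencing siRNA, at 0.40 (limma adjusted p = 0.0725).

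BCL2 was higher with LOC550643 than with Dcp2 and DcpS siRNA by 0.78 and 0.60, FGF2 than with DcpS siRNA by 0.72 and MYC than with GAPDH siRNA by 0.91 (limma adjusted p 0.0015, 0.00481, 0.000225 and 0.000207). CCNE1 was higher than with DcpS siRNA by 0.50 (limma adjusted p = 0.015), a call that ended without LOC550643 replicate 1 or DcpS replicate 1 or 2 (0.0528 to 0.0694). Outside this list, MAPKAPK2 was higher with LOC550643 than with DcpS siRNA by 0.66, and MAP3K7, a kinase upstream of p38 that is named here after its values were seen, was lower by 0.44 (limma adjusted p 0.00111 and 0.00638). MTOR was higher than with Dcp2 siRNA by 0.63 (limma adjusted p = 0.0117), a call that ended without replicate 1 of either siRNA (0.0633 to 0.0785). The BCL2, FGF2, MYC, MAPKAPK2 and MAP3K7 calls were kept without each of the 6 arrays in turn.

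The genes beside MKNK2 on chromosome 19 were taken from the RefSeq gene table, the 3 nearest measured genes on each side. On the side of higher coordinates, MOB3A, which encodes a member of the MOB family of kinase regulators, was the nearest. MOB3A was at 7.70, 7.97 and 8.07 log2 units with LOC550643 siRNA, 8.84, 8.74 and 8.84 with Dcp2, 8.29, 8.59 and 8.23 with DcpS, 8.63, 8.63 and 8.52 with GAPDH, and 8.55, 8.64 and 8.64 with non-silencing siRNA. As with MKNK2, its 3 LOC550643 arrays lay below the other 12. The share of all genes with this order was not computed. LOC550643 arrays did not overlap, in either direction, with non-silencing, Dcp2, DcpS or GAPDH arrays for 17%, 22.4%, 21.9% and 21.6% of all genes. MOB3A fell by 0.69 against non-silencing siRNA (SE 0.11, limma adjusted p = 0.00413), by 0.89 against Dcp2, 0.46 against DcpS and 0.68 against GAPDH siRNA (limma adjusted p 0.000499, 0.0193 and 0.00178). Without LOC550643 replicate 1 or DcpS replicate 2 the call against DcpS siRNA was lost (limma adjusted p 0.0878 to 0.0998). Unlike MKNK2, MOB3A was not called higher with Dcp2, DcpS or GAPDH siRNA than with non-silencing siRNA, at 0.20, -0.24 and -0.01 (limma adjusted p 0.400, 0.297 and 0.981).

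On the other side of MKNK2, BTBD2, a BTB domain protein gene, fell by 0.48 with GAPDH siRNA (limma adjusted p = 0.04), opposite in sign to MKNK2 there. BTBD2 was not called without GAPDH replicate 1 or 3 or any one non-silencing replicate (0.0634 to 0.164), nor after median centring (0.0556). It was at 0.06 with LOC550643, 0.04 with Dcp2 and 0.11 with DcpS siRNA. BTBD2 was higher with LOC550643 than with GAPDH siRNA by 0.54 (limma adjusted p = 0.0119), again opposite in sign to MKNK2. That call ended without replicate 1 of either siRNA (0.0623 to 0.0712). Between LOC550643 and Dcp2 or DcpS siRNA it differed by 0.02 and -0.06 and was not called. SCAMP4, CSNK1G2-AS1, IZUMO4 and MIR1227, the other 4 neighbours, were not called in any comparison of LOC550643 with another group or of another siRNA with non-silencing siRNA.

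**Figure D3:**
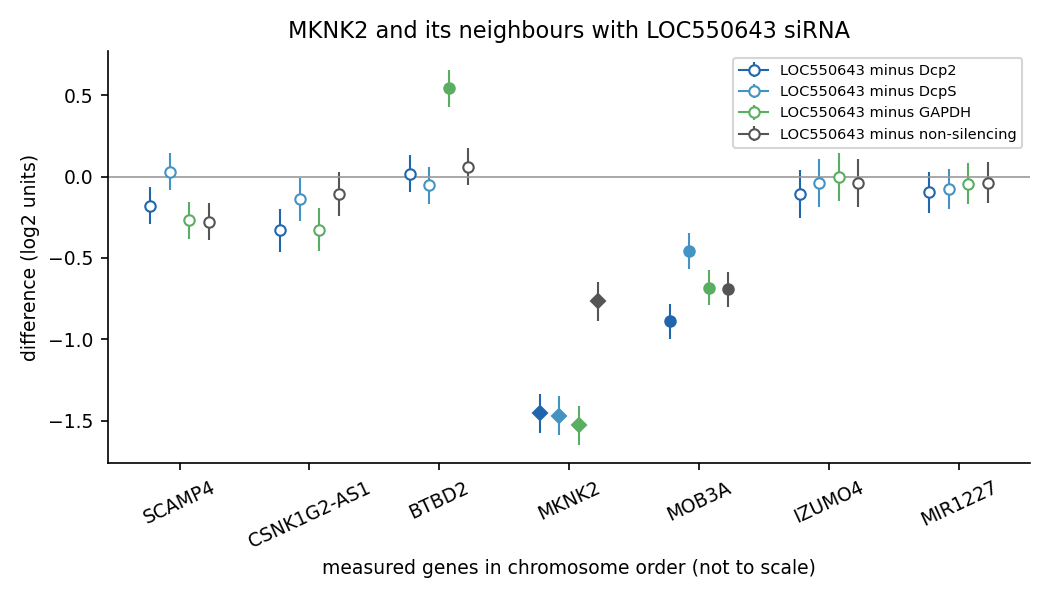
Differences of LOC550643 siRNA from each of the other 4 groups in log2 units (vertical axis) for MKNK2 (diamonds, no test) and its 6 nearest measured neighbours in chromosome order (circles, filled where limma's test was passed); bars are the SE. MKNK2 at -1.53 to -0.76 and MOB3A at -0.89 to -0.46 lie below 0 in all 4 comparisons, and MOB3A's circles are all filled.

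Likeness to MKNK2 was measured as Pearson's r over the 15 arrays among 7270 genes with a mean at or above the median. The 15 points fall into the 3 levels of MKNK2, so r mainly reflects group differences and is a description. Of these genes 12 had an r of at least 0.9, and 80.6% lay between -0.5 and 0.5. The 5 most like MKNK2 were ARHGAP1, a GTPase-activating protein, at 0.96, HEG1, a transmembrane protein of cell junctions, at 0.95, C11orf24 at 0.94, ZFPL1, a Golgi protein, at 0.93, and POMGNT2, a glycosyltransferase of dystroglycan, at 0.93. Within the 9 arrays of Dcp2, DcpS and GAPDH siRNA, where MKNK2 held 1 level, r was 0.77 for ARHGAP1, 0.62 for HEG1, 0.52 for C11orf24, -0.25 for ZFPL1 and 0.33 for POMGNT2. With group means taken off, r over the 15 arrays was 0.87, 0.69, 0.22, 0.19 and 0.72 in the same order. The genes were picked for r over these arrays, so these values too are a description.

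Group means show how these genes shared the pattern of MKNK2 and where sizes differed. HEG1 differed from non-silencing siRNA by -0.78 log2 units with LOC550643, close to the -0.76 of MKNK2, but by 0.23, 0.39 and 0.26 with Dcp2, DcpS and GAPDH siRNA, where MKNK2 was at 0.69 to 0.76. C11orf24 was at -0.57, 0.24, 0.15 and 0.22 in the same order, and POMGNT2 at -0.68, 0.23, 0.14 and 0.12. ARHGAP1, with the highest r, had differences of -0.16, 0.10, 0.13 and 0.21. In the promoter windows of these 5 genes, the fifth being ZFPL1, TATAAA was found in 0 and GGGCGG in 4, ARHGAP1, HEG1, C11orf24 and ZFPL1. Of all windows, 11.1% hold TATAAA and 42.3% hold GGGCGG. The CRE letters, held by 1.77% of all windows, were found in C11orf24. Windows were not matched for G and C content, and counts over 5 genes were not tested.

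Running most opposite to MKNK2 were TMEM245 (r = -0.88), the transcriptional repressor gene ZBTB18 (-0.87), ANKLE2, a nuclear envelope protein gene (-0.86), FAR2, a fatty acyl-CoA reductase gene (-0.86), and PPIF, which encodes mitochondrial cyclophilin D (-0.86). Within the 9 arrays of Dcp2, DcpS and GAPDH siRNA, r was 0.07, -0.25, 0.64, -0.44 and 0.22 in the same order. With group means taken off, r over the 15 arrays was 0.08, -0.23, 0.42, -0.66 and 0.05. Only ZBTB18 and FAR2 kept a negative sign in both. TMEM245 was at 9.55 ± 0.10 log2 units with LOC550643 siRNA and 9.05 ± 0.02 with non-silencing siRNA (SD, n = 3 each), and was 0.07 to 0.18 below non-silencing with the other 3. FAR2 differed less with LOC550643 siRNA, at 0.24 against non-silencing, than with Dcp2 siRNA, at -0.49. Leaving out each array in turn, r stayed between 0.90 and 0.97 for the 5 genes most like MKNK2 and between -0.92 and -0.82 for the 5 most opposite. The genes were picked for r over these same arrays, and leaving out 1 array keeps the levels of the groups. A narrow range was thus built in and is no support for the likeness.

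**Figure D4:**
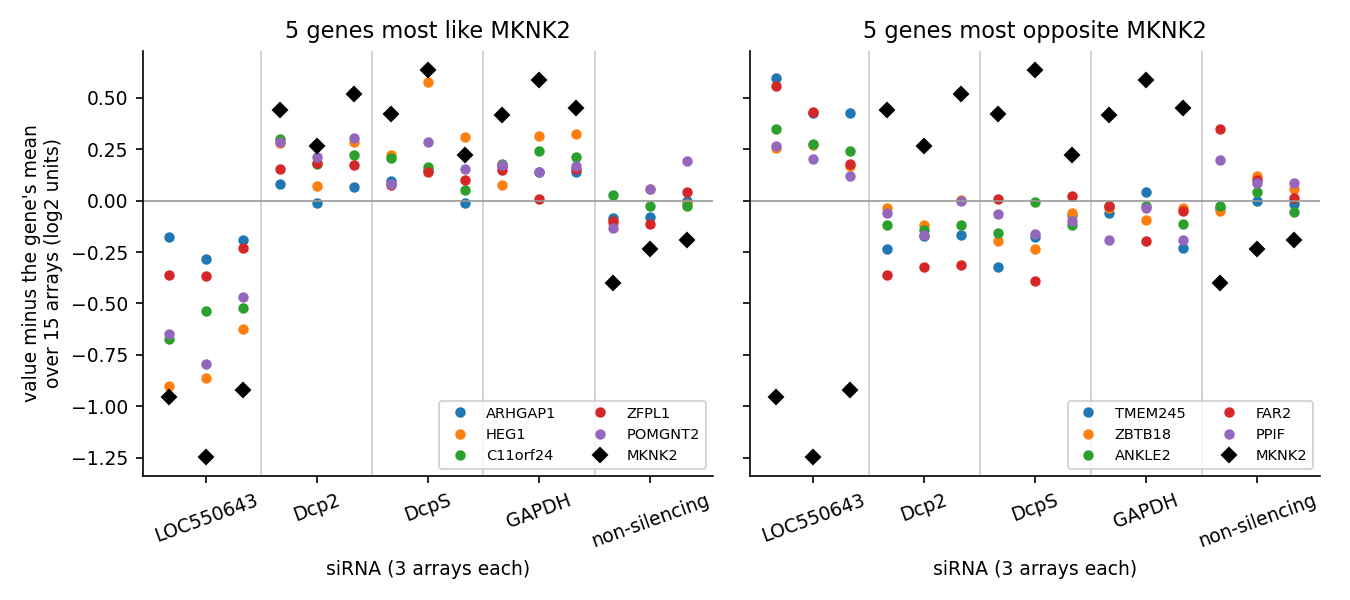
Value of each gene minus its mean over the 15 arrays, in log2 units (vertical axes), for MKNK2 (black diamonds) with the 5 genes most like it (left) and the 5 most opposite (right); each point is an array, 3 per siRNA. MKNK2 sits lowest with LOC550643 siRNA and above 0 in all 9 Dcp2, DcpS and GAPDH arrays, and the 3 HEG1 arrays with LOC550643 siRNA lie below 0 but above those of MKNK2.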

How the data were processed

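Per the submitters' processing notes, RMA and the oligo package made the deposited values; their versions, the probe set definition and the genome build are not given in the sources used here. On inspection, the values the authors deposited are on a log scale, read as log2 from their range. RMA's quantile step means that a shift of all transcripts cannot be seen. The number of arrays limits the precision.

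For the 779 genes with several named probe sets the one with the highest mean was used; 37519 probe sets were unnamed and left out. Files were read under R 4.3.3 with the data.table package (version 1.17.8), and limma 3.58.1 fitted 1 mean per group to all 15 arrays (10 residual degrees of freedom), two-sided, with Benjamini-Hochberg adjustment over 14884 genes per comparison, and was tested on simulated data. SE are limma's moderated ones.

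MKNK2, the lists and the naming rule were chosen with earlier results of these data known. Named were the targeted genes, MNK partners, called list members (up to 4 a list and comparison), 5 genes at each end of the likeness ranking (small RNAs and olfactory receptors left out) and 6 neighbours. EIF4G1 and MAPK14 are not analysed here. Alternatives were a replicate block, quantile normalization, median centring, dim genes left out, the mean of probe sets, only the groups compared, the within-group axis as a covariate, and leaving out each array.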

Additional observations from a re-analysis of the deposited data

How the results depend on the processing

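MKNK2 has 1 probe set and each group has 3 arrays. The replicate block, dim genes left out, mean of probe sets, only the groups compared and the axis covariate therefore return the same differences by construction. The ranges below are those of leaving out 1 array, which moves a group mean only within the spread of its 3 arrays. For MKNK2, all 130 alternative values of its 10 differences moved by less than the within-group SD, which is a description and not a test. They ran from -0.83 to -0.66 for LOC550643 minus non-silencing, 0.62 to 0.76 for Dcp2, 0.60 to 0.80 for DcpS and 0.70 to 0.80 for GAPDH, and between siRNAs from -1.52 to -1.35, -1.57 to -1.36 and -1.59 to -1.42 for LOC550643 minus Dcp2, DcpS and GAPDH, -0.12 to 0.09 for Dcp2 minus DcpS, -0.13 to 0.00 for Dcp2 minus GAPDH and -0.16 to 0.04 for DcpS minus GAPDH.

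Counts of called genes moved more, and the order of siRNAs here is LOC550643, Dcp2, DcpS and GAPDH against non-silencing. Over all genes they were 233, 294, 538 and 297; 53, 39, 104 and 44 with only the 2 groups fitted; 621, 1167, 1055 and 647 with the within-group axis as a covariate, which lowers the residual spread by construction; and 403, 684 and 461 for LOC550643, Dcp2 and GAPDH without dim genes, where fewer genes are tested. Pathway genes called were 0, 1 and 1 for LOC550643, Dcp2 and GAPDH with only 2 groups, 9, 13, 8 and 8 with the axis, and 6 and 8 for LOC550643 and Dcp2 without dim genes. For LOC550643 against Dcp2 there were 3 after median centring, 8 without dim genes and 11 with the axis, and 4 against DcpS and 4 against GAPDH with only 2 groups. Leaving out 1 array gave 79 to 202, 41 to 393, 276 to 466 and 139 to 239 genes, of which 0 to 2, 1 to 6, 3 to 4 and 1 to 4 were pathway genes, and 1 to 5, 5 to 9 and 4 to 9 pathway genes for LOC550643 against Dcp2, DcpS and GAPDH.

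With only the 2 groups fitted, the calls of EIF4EBP1, ARAF, CCNE1, DUSP1, DUSP8, MTOR, FGF2, EIF4EBP2, BTBD2, EIF4E2 and ODC1 against non-silencing siRNA were lost. So were, for LOC550643, those of ARAF and CCND1 against Dcp2 (0.0913 and 0.0533), of EIF4EBP1, EIF4EBP2, ARAF, MAP3K7, CCND1, CCNE1, SRSF1 and MOB3A against DcpS (0.0644 to 0.136), and of SFPQ, CCND1, BTBD2 and DUSP7 against GAPDH (0.0565 to 0.115). The EIF4B calls against DcpS and GAPDH were lost here as well. Quantile normalization ended the CCND1 call against GAPDH (0.0772), and median centring that of ARAF against Dcp2 (0.0652). Both also ended the EIF4B call against GAPDH, as did the replicate block. The mean of probe sets ended the EIF4B calls against DcpS and GAPDH. The 10 genes at the ends of the likeness ranking kept 5 to 9 of their places without 1 array, 7 after quantile normalization or median centring and 8 with the replicate block. Same-numbered arrays of different groups deviated together in 9 of 30 pairs (r over 0.1), and other-numbered arrays in 14 of 60. On the within-group axis, replicate 3 lay at -0.32, -0.22, -0.37 and -0.30 for LOC550643, DcpS, GAPDH and non-silencing siRNA, but at 0.11 for Dcp2. Replicate 1 lay at 0.20, 0.42, 0.02 and 0.44, but at -0.10 for Dcp2. Whether the numbers mark shared cultures or days cannot be decided from this, so the block was kept as an alternative. It gave 5 pathway calls for DcpS instead of 3. For ARAF between LOC550643 and Dcp2 it gave a limma adjusted p of 0.0519, which ended the call, where the fit without it gave 0.0361. For LOC550643 against the other targeting siRNAs, the alternatives for pathway genes were chosen after seeing the data. Where not given, the cause was not tested.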
